A study of Mus musculus with 2 samples.

Results

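Band 3, the Rh proteins and the carriers of other blood groups are membrane proteins of the red cell, and 9 of their genes were measured in erythroblasts, the nucleated precursors of red cells. The genes were chosen by symbol: Slc4a1, Rhag, Rhd, Kel, Xk, Gypc, Ermap, Icam4 and Aqp1. All 9 were found among the 43346 mouse genes of the deposited tables, and they held 28 annotated transcripts. Total RNA was sequenced in 2 libraries of primary erythroblasts from adult male C57BL/6J mice of 5 to 6 weeks, with 1 ng of RNA and spike-in RNA in each library. No genotype other than the strain and no treatment was given in the labels. Both libraries belong to 1 group, biological replicates 1 and 2, which have separate biosamples under the same donor entry. The labels do not say whether they came from separate animals, so an SD over n = 2 may be technical in part, and no comparison between conditions could be tested. The isolation protocol that the labels link is named for bone marrow progenitors, and no sorting gate is described in the sources used here.

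Band 3, the product of Slc4a1, exchanges chloride for bicarbonate and ties the membrane to the spectrin skeleton through ankyrin and protein 4.2. Rhag and the Rh protein sit in a complex with band 3, and Rhag carries ammonia and is needed for the Rh protein to reach the surface. Kell, a zinc endopeptidase, is joined to Xk by a disulfide bond in human red cells, and glycophorin C, from Gypc, holds the junctions of the skeleton through protein 4.1. Mice carry a single Rh gene, Rhd, where humans have an additional paralog, and the human proteins carry the Diego (SLC4A1), Rh (RHD), Kell (KEL), Kx (XK), Gerbich (GYPC), Scianna (ERMAP), LW (ICAM4) and Colton (AQP1) blood groups.

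Sequences of 2 kinds bear on the values. The junction sequences are shown because the level of Kel turned on which annotated transcript its reads were given to. Kel lies at chr6:41686330-41704339 on the minus strand of mm10, and its full-length transcript Kel-201 has 19 exons. Transcript Kel-205 is an annotated fragment of 2 exons with no annotated start, which joins exon 17 to exon 19 and leaves out the 96 bases, or 32 codons, of exon 18. Capitals mark the bases after the end of exon 17, which belong to exon 18 in Kel-201 and to exon 19 in Kel-205, and the spans include the introns between the exons. The bases come from the GENCODE M21 transcripts.
Kel-201 (chr6:41687588-41687974, minus strand): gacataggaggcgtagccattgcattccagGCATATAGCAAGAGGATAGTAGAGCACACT
Kel-205 (chr6:41686579-41687974, minus strand): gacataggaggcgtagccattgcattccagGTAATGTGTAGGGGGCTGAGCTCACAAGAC

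Promoters are shown because erythroid genes are known to be bound by the factor Gata1, whose own level is given below. The 100 bases before the RefSeq start site are printed 5′ to 3′ on the strand of the gene, on GRCm38.p6, and capitals mark the letters AGATAA or TGATAA on either strand.
Kel (chr6:41704326-41704425, minus strand): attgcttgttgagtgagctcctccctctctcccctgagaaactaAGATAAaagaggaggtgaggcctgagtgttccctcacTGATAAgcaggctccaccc
Ermap (chr4:119189996-119190095, minus strand): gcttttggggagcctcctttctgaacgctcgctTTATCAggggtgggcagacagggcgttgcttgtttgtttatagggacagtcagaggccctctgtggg
Rhag (chr17:40811049-40811148, plus strand): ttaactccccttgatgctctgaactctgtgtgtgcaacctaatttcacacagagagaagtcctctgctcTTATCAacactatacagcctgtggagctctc
Rhd (chr4:134864436-134864535, plus strand): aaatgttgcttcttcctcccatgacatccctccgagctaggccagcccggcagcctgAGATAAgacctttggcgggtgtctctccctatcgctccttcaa
These 4 promoters and that of Icam4 each held such letters within 100 bases of the start. The letters began 56 and 19 bases before the start in Kel, 67 in Ermap, 43 in Rhd, 31 in Rhag and 43 in Icam4. Within 250 bases, 5 of the 7 member promoters held them, and Aqp1 and Xk did not. Among all 32851 promoters of the table, 6.17% held them within 100 bases and 16.6% within 250 bases. The letters CCNCNCCC, read on both strands as a form of the motif of erythroid Klf1, were in 3 of the 7 (Aqp1, Icam4 and Xk), against 45.9% of all promoters within 250 bases. A match of letters does not show binding. All distances run from the RefSeq start. The GENCODE starts of Kel-201 (41704339), Ermap-206 (119190011) and Rhag-201 (40811126) lie inside the printed spans. RefSeq promoters of Slc4a1 and Gypc were not analysed here.

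The cells carried the erythroid programme, with other cells or their RNA beside it. All 10 erythroid markers reached 1 TPM (a transcript abundance corrected for length and scaled to a fixed total per library) in both libraries and summed to 20880 and 22605 TPM, most of it from the globins Hbb-bs and Hba-a2 at 7310.4 ± 698 and 7301 ± 206 TPM. All 12 neutrophil markers did so too and summed to 2035 and 2344 TPM, led by S100a9 and S100a8 at 747 ± 118 and 678 ± 88.0 TPM. Of 10 monocyte and macrophage markers 7 did so, with sums of 22.6 and 21.4 TPM, led by Vcam1 and Ccr2 at 5.12 ± 0.0849 and 3.80 ± 0.0849 TPM. Of 10 megakaryocyte and platelet markers 1 did so, with sums of 4.42 and 5.88 TPM, led by Itga2b and Pf4 at 2.05 ± 1.30 and 1.08 ± 0.177 TPM and with Treml1 at 0 counts. None of 10 endothelial markers did so, with sums of 1.44 and 1.73 TPM, led by Vwf and Pecam1 at 0.820 ± 0.0707 and 0.470 ± 0.325 TPM and with Kdr and Emcn at 0 counts. None of 10 B and T cell markers did so, with sums of 1.90 and 1.22 TPM, led by Cd79b and Cd3g at 0.675 ± 0.233 and 0.485 ± 0.686 TPM and with Cd3d and Cd8a among those at 0 counts. None of 8 kidney tubule markers did so, where Slc4a1 and Aqp1 are also used; they summed to 0.0300 and 0.0200 TPM, from Atp6v0a4, and of the others Slc34a1 had 1 count in replicate 1 while the remaining 6 had none. Fewer cells of a type and less RNA per cell cannot be told apart in such bulk RNA. The part of neutrophil or monocyte RNA in the levels below was not tested. Replicate 1 held 80806663 expected counts and replicate 2 held 117032607, of which nuclear protein-coding genes took 5.44% and 5.82%. Mitochondrial genes held 86.3% and 86.8% of the TPM, so a limit of 1 TPM is stricter than it would be over nuclear genes alone.

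Red cell membrane genes of this group were expressed at levels that spanned from 260.1 to 0.720 TPM, and 8 of the 9 reached 1 TPM in both libraries, against 14.5% of 21461 nuclear protein-coding genes. All 9 held at least 10 expected counts (estimated reads) in both libraries, against 42.8% of those genes. The median of the 9 was 20.9 TPM in replicate 1 and 21.3 TPM in replicate 2, against 0.0300 and 0.0200 TPM over nuclear protein-coding genes and 2.58 and 2.90 TPM over those detected. Summed, the 9 made up 1.16% and 1.05% of all nuclear protein-coding TPM. The genes are erythroid by common knowledge, so a high level was part of why they form a group.

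**Figure D1:**
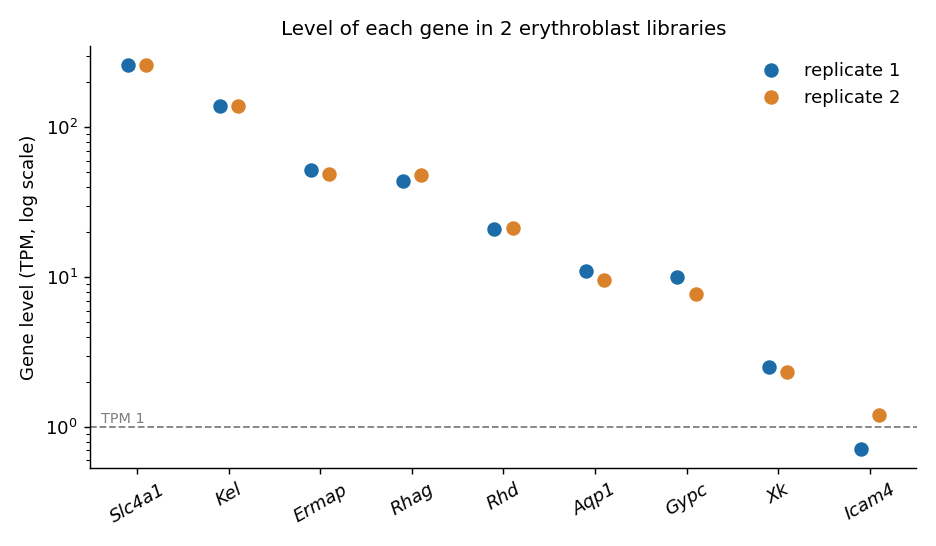
Level of each of the 9 genes in TPM on a log axis, with 1 point per library and a dashed line at 1 TPM. Slc4a1 stands highest at 260.1 and 259.2 TPM, and Icam4 lowest at 0.720 and 1.21 TPM, on either side of the line.

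Band 3 led the group. Slc4a1 (ENSMUSG00000006574, chromosome 11, 102348824 to 102366203, minus strand) had 260.1 TPM in replicate 1 and 259.2 TPM in replicate 2, from 82501 and 120479 expected counts. It ranked 9 and 10 among nuclear protein-coding genes and gave 48.1% and 48.3% of the summed TPM of the 9 genes. The deposited TPM was nearly equal in both libraries, while the share of nuclear protein-coding TPM was 0.556% in replicate 1 and 0.508% in replicate 2. Of its 5 annotated transcripts, the full-length coding one carried 99.95% and 99.75% of the TPM, and the other 4, all without a coding sequence, held 3.35 and 13.9 expected counts together.

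The genes that anchor band 3 stood below it. Of 12 listed genes of the anchoring and junctional skeleton, 11 reached 1 TPM in both libraries, with a median of 14.8 ± 0.810 TPM (SD, n = 2). Protein 4.1, from Epb41, stood at 82.2 ± 1.52 TPM, protein 4.2, from Epb42, at 58.0 ± 0.559 TPM, ankyrin, from Ank1, at 29.8 ± 1.99 TPM, and stomatin, from Stom, at 19.8 ± 0.516 TPM. Tropomodulin 3, from Tmod3, was lowest at 0.830 ± 0.113 TPM. In gene TPM, Slc4a1 exceeded Ank1 by 8.34 and 9.14 times and Epb42 by 4.45 and 4.50 times. The TPM ratio to Epb42 thus varied less between the libraries than that to Ank1. In counts scaled as below, replicate 2 to replicate 1 gave log2 ratios of -0.10 for Slc4a1, -0.11 for Epb42 and -0.14 for Ank1. The split of these skeleton genes over their transcripts is not reported here.

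Of 8 listed partners and relatives of band 3 and the Rh proteins, 3 reached 1 TPM, and 2 of these are described. Carbonic anhydrase 2, from Car2, stood at 112 ± 7.61 TPM. Cd47, which joins the Rh complex in human red cells, stood at 33.5 ± 4.23 TPM. The relative Slc4a2 had 0.710 and 0.0300 TPM from 108 and 8.28 counts, and no read was counted for the relatives Slc4a3 and Rhbg in either library (0 counts, an upper limit of 3).

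Rhag and Rhd were both expressed, Rhag at the higher level. Rhag (ENSMUSG00000023926, chromosome 17, 40811126 to 40840754, plus strand) had 43.7 TPM in replicate 1 and 47.8 TPM in replicate 2, from 6934 and 11083 counts. Rhd (ENSMUSG00000028825, chromosome 4, 134864536 to 134896172, plus strand) had 20.9 TPM and 21.3 TPM, from 2049 and 3074 counts. The ranges of the genes did not overlap, and Rhag exceeded Rhd by 2.09 times in replicate 1 and 2.25 times in replicate 2. Their coding sequences, of 1314 bases in Rhag and 1254 in Rhd, were identical at 55.9% of 1196 aligned bases. The whole transcripts shared no run of 31 bases. Rhag has 1 annotated transcript. Of the 2 of Rhd, the coding Rhd-201 carried 97.9% and 100% of the TPM, and Rhd-202, which retains an intron, had 17.6 counts in replicate 1 and 0 in replicate 2.

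Kel was second in the group by gene level, and that place rested on short transcripts. Kel (ENSMUSG00000029866) had 139.2 and 138.7 TPM, from 5156 and 7356 counts, and ranked 18 and 19 among nuclear protein-coding genes. The full-length coding transcript Kel-201 had 18.9 and 19.2 TPM, 13.6% and 13.8% of the gene's TPM, although it held 63.3% and 65.7% of the gene's counts. Kel-205, whose junction is printed above, had 78.3 and 81.9 TPM, or 56.3% and 59.1%, from 1058 and 1492 counts. It is 322 bases long, with a deposited effective length (the bases at which a fragment can start) of 188 and 172 bases, against 2395 and 2379 bases for Kel-201.

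The other Kel fragments that held counts lay within exons 14 to 19 and their introns. Kel-202, of 422 bases, starts within intron 17, holds exon 18 and ends in exon 19, and had 29.4 and 25.6 TPM. Kel-203, of 384 bases, extends exons 14 and 15 into their introns and had 12.5 and 12.0 TPM. Kel-204, which runs from exon 7 to exon 17, had 0 counts in both libraries. The short transcripts Kel-202, Kel-203 and Kel-205 together held 86.4% and 86.2% of the TPM but 36.7% and 34.3% of the counts. Reads within exon 19 match Kel-201, Kel-202 and Kel-205 alike, so their split is an estimate. How many reads crossed the printed junctions was not analysed here.

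**Figure D2:**
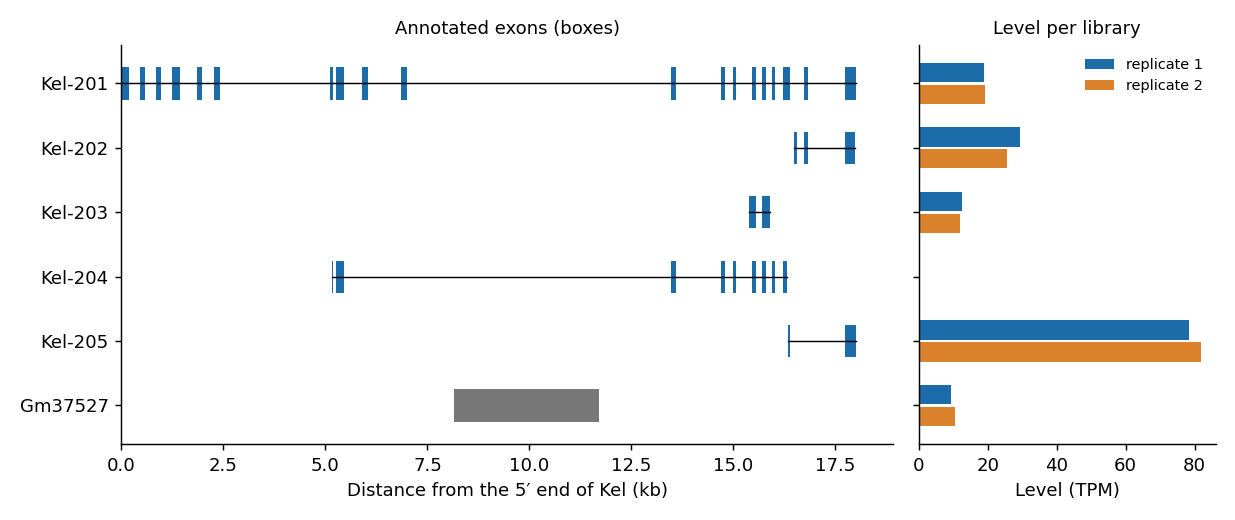
Left, annotated exons (boxes) of the 5 Kel transcripts and of Gm37527, a gene inside intron 10 of Kel, by distance in kb from the 5′ end of Kel. Right, the level of each in TPM, with 1 bar per library. Kel-205 has the highest bars, at 78.3 and 81.9 TPM, while the full-length Kel-201 stands at 18.9 and 19.2 TPM.

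RNA from within an intron of Kel was also counted. Gm37527 (ENSMUSG00000103788), a gene of provisional type of 3547 bases at chr6:41692640-41696186, lies wholly in intron 10 of Kel on the same strand. It had 9.27 and 10.5 TPM, from 2275 and 3774 counts. These reads count to Gm37527 and not to Kel, and reads of the intron and of a separate gene cannot be told apart. No other member overlapped a counted gene apart from Xk, within which H2al1m had 9 counts in replicate 1 and 0 in replicate 2.

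With all reads of a gene set over the effective length of its longest complete coding transcript, a measure chosen after the values were seen, Kel stood at 29.9 and 29.2 TPM. The deposited gene level was 4.65 and 4.76 times that. For the other 8 genes it was between 1.00 and 1.10 times. Among 2458 detected protein-coding genes with several transcripts, 2.52% exceeded that measure at least 4 times in both libraries. Among the 5 members with several transcripts, Kel alone did so. A leading transcript under 0.5 times the length of the longest coding transcript in both libraries was found for 1 of the 5, again Kel, against 16.8% of those genes.

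Xk, the partner of Kell, stood below every other member but Icam4, and ranked 1595 and 1889 among nuclear protein-coding genes. Xk (ENSMUSG00000015342, chromosome X, 9272756 to 9313250, plus strand) had 2.52 and 2.32 TPM, from 895 and 1211 counts on its 1 annotated transcript of 5076 bases. Kel exceeded it by 55.3 and 59.8 times at the gene level, and by 7.52 and 8.25 times when Kel-201 alone was taken. Vps13a, whose human product transfers lipids and binds XK, led the 8 listed relatives and partners of Xk at 0.375 ± 0.177 TPM, ahead of Xkr8, a lipid scramblase, at 0.0950 ± 0.00707 TPM, Xkr5 at 0.0650 ± 0.00707 TPM and Xkrx at 0.0450 ± 0.0636 TPM. None of the 8 reached 1 TPM, though Vps13a held 173 and 501 counts, and Xkr4, Xkr6, Xkr7 and Xkr9 had 0 counts. None of 6 peptidases of the family of Kell reached 1 TPM either. The endothelin-converting Ece2 and Ece1 stood at 0.480 ± 0.0990 and 0.135 ± 0.0212 TPM, Mmel1 at 0.130 ± 0.113 TPM and neprilysin, from Mme, at 0.01 and 0 TPM, while Ecel1 and Phex had 0 counts.

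Ermap, an erythroid membrane protein of the butyrophilin family, followed Slc4a1 and Kel by gene level. Ermap (ENSMUSG00000028644, chromosome 4, 119175457 to 119190011, minus strand) had 52.2 TPM in replicate 1 and 48.8 TPM in replicate 2, from 15160 and 21399 counts. The coding Ermap-206 carried 85.0% and 85.5% of its TPM. Ermap-203, which retains an intron, carried 7.72% and 6.25%. The 3 transcripts annotated for nonsense-mediated decay carried 2.39% in replicate 1 and 6.65% in replicate 2, most of that gap from Ermap-201 at 0.890% and 4.22%. Among 5 listed butyrophilin relatives, Btnl10 alone reached 1 TPM, at 15.5 ± 0.141 TPM. Btn1a1, Btnl9 and Btnl2 stood at 0.215 ± 0.00707, 0.0800 ± 0.0566 and 0.0250 ± 0.0354 TPM, and Btn2a2 had 0 counts.

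Reads of glycophorin C were assigned mainly to 2 coding forms. Gypc (ENSMUSG00000090523, chromosome 18, 32528322 to 32560034, minus strand) had 10.1 TPM in replicate 1 and 7.75 TPM in replicate 2, from 1418 and 1604 counts. Gypc-202, of 2 exons and 234 coding bases, carried 72.3% and 70.4% of the TPM. Gypc-203, of 3 exons and 285 coding bases, carried 26.5% and 29.6% and differs in its coding part by a middle exon of 51 bases, or 17 codons. The shorter form led in both libraries, and the split moved less between them than the level of the gene. Reads that lie within the exons common to both forms match both, so the split is an estimate.

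**Figure D3:**
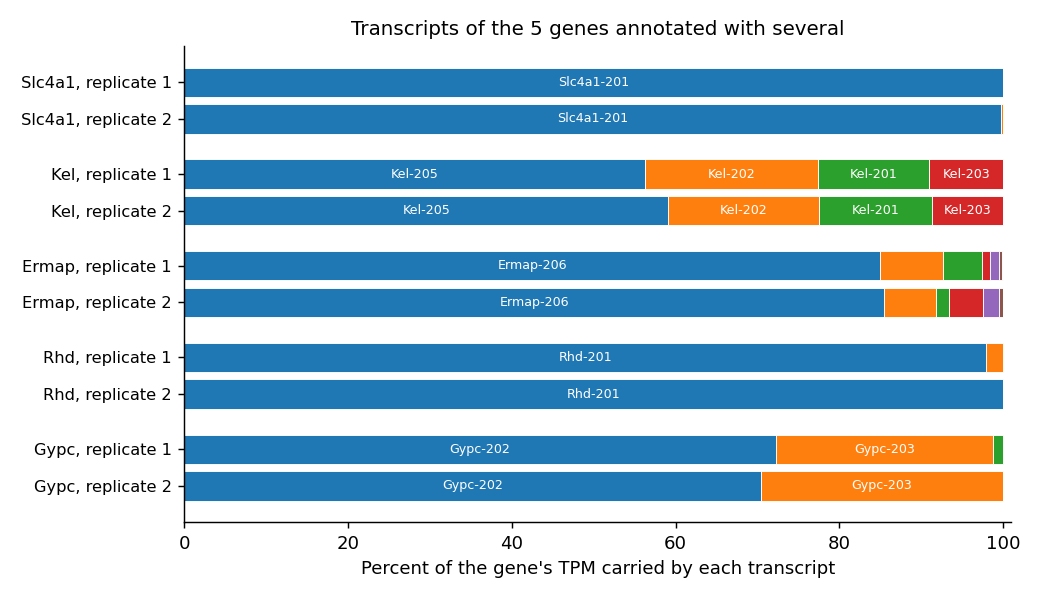
Percent of each gene's TPM carried by each of its transcripts, for the 5 genes with several annotated transcripts, with 1 bar per library and transcripts of at least 8% named. Slc4a1, Rhd and Ermap are led by a coding transcript with at least 84.96%, Gypc is divided between 2 coding forms, and Kel-201 carries 13.6% and 13.8% of Kel.

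The leading transcript was the same in both libraries for all 5 genes with several, against 75.5% of detected protein-coding genes with several. It carried at least 95% in both libraries for 2 of the 5, Slc4a1 and Rhd, against 15.4% of those genes. It carried under 60% on average for 1 of the 5, Kel, against 36.5%. Those shares cover detected genes of any depth, whereas Gypc, the least counted of the 5, held 1418 and 1604 counts.

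Aqp1, a water channel that human red cells, kidney and endothelium share, had 11.1 TPM in replicate 1 and 9.54 TPM in replicate 2, from 1982 and 2504 counts (ENSMUSG00000004655, chromosome 6, 55336432 to 55348555, plus strand). Of the endothelial markers, Kdr and Emcn were at 0 counts, and the highest, Vwf, at 0.770 and 0.870 TPM, is also a platelet gene. Others held counts: Pecam1 52 in replicate 1 and 183 in replicate 2, Tek 0 and 45, and Egfl7 17 and 2. Whether endothelial RNA added to the level of Aqp1 was not tested. Of 10 other aquaporins, Aqp9, a channel for glycerol as well as water that leukocytes also use, was the only one at 1 TPM or more in both libraries, at 7.65 ± 1.08 TPM. Aqp9 had 8.41 TPM in replicate 1 and 6.88 TPM in replicate 2. Aqp4 had 2 counts in replicate 1 and 0 in replicate 2, Aqp11 had 0 in both, and so did Aqp2, Aqp3, Aqp5, Aqp6, Aqp8 and Aqp12.

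Icam4, a ligand of integrins, lay near the limit of 1 TPM set here for detection, though reads were counted for it in both libraries. Icam4 (ENSMUSG00000001014, chromosome 9, 21029373 to 21030595, plus strand) had 0.720 TPM in replicate 1 and 1.21 TPM in replicate 2, from 39.9 and 97.1 counts. Counting error alone (exact Poisson interval, 95%) allowed 0.516 to 0.984 TPM in replicate 1 and 0.981 to 1.48 TPM in replicate 2, so the intervals just met. Its counts were not whole, unlike those of the other 8 genes (within 0.005), which means that some reads were shared out between Icam4 and another place. Its neighbours Icam1 and Icam5 had at most 14 counts in a library, and Icam2 stood at 0.510 TPM in both libraries, so none of the 3 relatives reached 1 TPM. Gm47079, annotated antisense to Icam4 in GENCODE M21, was not analysed here, and without a stated strand its reads could not be told from those of Icam4.

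In order of gene TPM the genes ran Slc4a1, Kel, Ermap, Rhag, Rhd, Aqp1, Gypc, Xk and Icam4. Of the 8 pairs of neighbours, the ranges of the libraries overlapped for Aqp1 and Gypc. With all reads over the longest coding transcript, Kel moved to a place between Rhag and Rhd, and the ranges of Ermap and Rhag overlapped as well. By the TPM of that transcript alone, Kel-201 stood below Rhd-201 at 0.925 and 0.900 times its level, and Rhag stood above Ermap with overlapping ranges. Gypc was then taken as Gypc-203, its longest but less abundant form, at 2.68 and 2.29 TPM. In that setting its range overlapped that of Xk and no longer that of Aqp1.

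**Figure D4:**
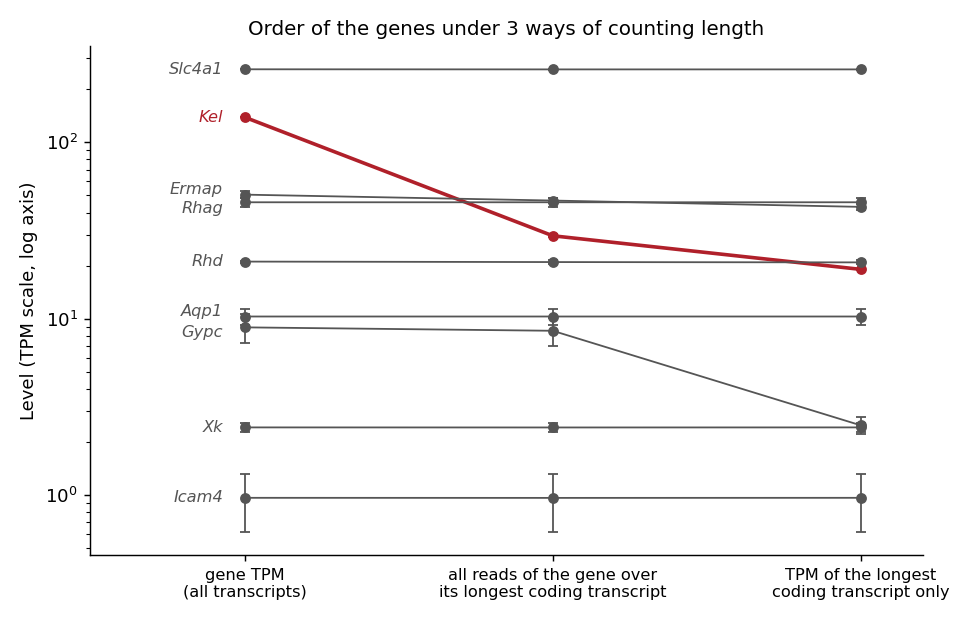
Mean level of each gene on the TPM scale (log axis, error bars the SD of 2 libraries) as the deposited gene TPM, with all reads over the longest coding transcript, and as the TPM of that transcript alone. Kel stands at 139, 29.5 and 19.05 TPM, Gypc at 8.94, 8.54 and 2.49 TPM, and the other lines are nearly level.

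For the well-counted genes the libraries differed by less than 1.5 times, as for most genes of that depth. The log2 ratio of replicate 2 to replicate 1, in counts scaled by edgeR's TMM factors, ran between -0.47 for Gypc and 0.03 for Rhag for the 8 genes with a mean of at least 1000 counts. All 8 thus differed by less than 1.5 times, against 97.4% of 855 genes at that depth and 76.9% of the 5805 genes whose mean reached 100 counts. Gypc, Aqp1, Xk and Rhd stood at -0.47, -0.31, -0.21 and -0.06. The median absolute log2 ratio was 0.15 over 568 genes with 1000 to 3000 counts. Kel at -0.13 and Rhag at 0.03 stood against a median of 0.0996 over 208 genes with 3000 to 10000 counts. Ermap at -0.15 stood against 0.0707 over 48 genes with 10000 to 30000 counts. Most of these members thus differed more between the libraries than the median gene of their depth, and Rhd and Rhag less. Icam4 was higher in replicate 2 at 0.59, or 1.51 times, and 45.7% of 2062 genes with a mean of 50 to 100 counts stayed within 1.5 times. With 1 library on each side, these ratios carry no test.

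**Figure D5:**
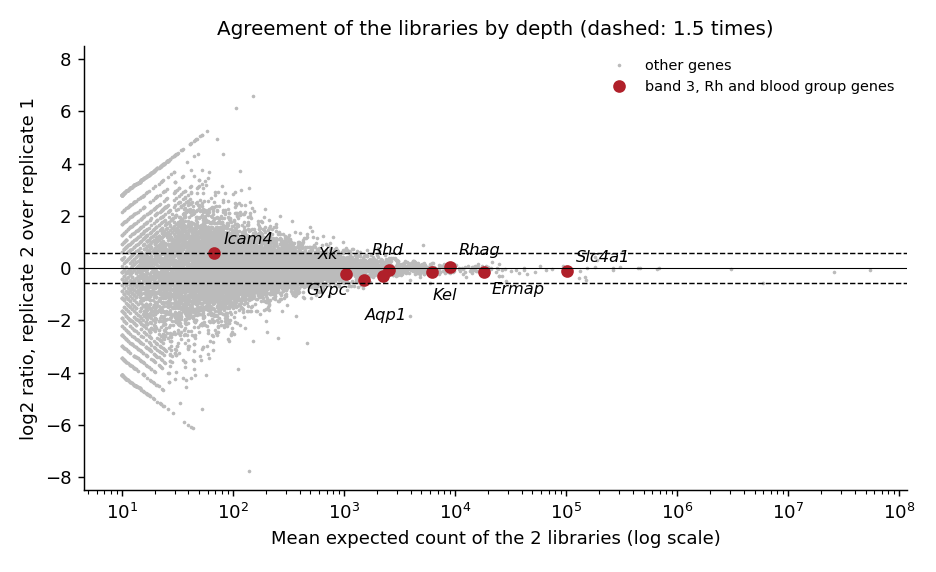
The log2 ratio of replicate 2 to replicate 1 for each gene with a mean of at least 10 counts, against its mean count on a log axis; grey points are other genes, red points the 9 genes, and dashed lines mark 1.5 times. Icam4 lies at the upper line at 0.59, where grey points scatter widely, and the other 8 lie between the lines.

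Of 21 other carriers of human blood groups or their relatives, 12 reached 1 TPM in both libraries, with a median of 2.53 and 3.14 TPM. Basigin, from Bsg, led at 46.4 ± 1.61 TPM, close to Rhag. The transporter Abcg2 stood at 13.7 ± 0.884 TPM, Art4, of the Dombrock group in humans, at 9.85 ± 0.537 TPM, and the urea transporter Slc14a1, of the Kidd group, at 6.38 ± 0.0919 TPM. Bcam, of the Lutheran group, had 0 counts in both libraries. Of 8 erythroid regulators 7 reached 1 TPM, led by Lmo2 at 41.3 ± 2.48 TPM, Nfe2 at 23.1 ± 2.21 TPM, Tal1 at 4.21 ± 0.410 TPM and Gata1 at 3.17 ± 1.30 TPM, and Ldb1 was lowest at 0.975 ± 0.148 TPM. Chosen after its value was seen, Klf1 stood at 2.98 ± 0.212 TPM.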

How the data were processed

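Total RNA-seq tables of 2 erythroblast libraries were used, each with a gene table and a transcript table. The authors, per the deposited read-me, quantified a transcriptome alignment on mm10 with GENCODE M4. Aligner, quantifier, versions and strand setting: not given in the sources used here. Per the file headers, the deposited values are expected counts (estimated reads, shared out where they match several places), TPM scaled by the authors over all rows, FPKM, and the percent of a gene's TPM on each transcript. FPKM and the authors' deposited posterior mean TPM (a score) served as alternatives. Mitochondrial genes hold 86.3% and 86.8% of the TPM, and nuclear protein-coding genes 4.68% and 5.10%. Symbols, types and coordinates were matched by Ensembl identifier without version to GENCODE M21 (42462 of 43346 genes). Member promoters came from RefSeq on GRCm38.p6, 7 of 9 matched.

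A gene was called detected at 1 TPM or more in both libraries. Expected counts were rounded for edgeR 4.0.16 (TMM over 10012 genes kept by its filter, prior count 2) and DESeq2 1.42.0 size factors; with 1 group no test was run. The ratio step was tested on simulated data. All 9 members are described, and from other lists the 4 highest genes and a lowest, from marker lists the 2 highest; some listed genes are not reported here. Members and lists were chosen with earlier results of these data known. A count of 0 allows up to 3 counts; intervals cover counting error only, since no molecular identifiers separate PCR copies.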

Additional observations from a re-analysis of the deposited data

How the results depend on the processing

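No paired analysis was possible because the libraries form 1 group. The count of members at the detection limit, main value 8, was 8 or 9 under all alternatives, with 9 where Icam4 passed: at 0.5 TPM, by 10 counts, with TPM rescaled to nuclear protein-coding genes, and in replicate 2 alone. The median level of 21.1 TPM was 18.9 in FPKM, 432 in rescaled TPM and 19.05 by the TPM of the longest coding transcript alone (chosen after seeing the data). It was 20.9 in replicate 1 and 21.3 in replicate 2. Under all 6 alternative scalings 8 members stayed within 1.5 times between libraries. All 9 leading transcripts matched between libraries, or 5 when genes with a single transcript were left out. Of 8 neighbouring pairs, 1 overlapped, against 2 by the TPM of protein-coding transcripts, 0 by counts with no length correction, and 2 each by all reads over the longest coding transcript and by that transcript alone, the last pair of settings chosen after seeing the data. By counts with no length correction Kel stood between Rhag and Rhd. Of the single-gene values under alternatives, 24 of 72 levels, 23 of 54 ratios and 7 of 25 leading shares moved by more than their error. The moved levels include every level in rescaled TPM and several in FPKM. Both settings change the scale of all genes of a library alike and leave the order of the genes within it as it was. With n = 2, the SDs are themselves imprecise, and the depth does not settle whether Icam4 lies above 1 TPM.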
